A study of Drosophila melanogaster with 8 samples.

Results

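The salivary gland genes sage, ng1, ng2, ng3, Pig1 and Eig71Ee were followed in RNA of wing imaginal discs, the larval sacs that form the adult wing. They were found, by matching gene symbols, in the authors' deposited table, which lists transcripts that differed at least 1.5-fold between wildtype and BEAF-32 mutant discs. Each of the 6 genes was found, with 7 transcripts of the 4379 in that table and of 16637 on the arrays. Both transcripts of sage, here A and B after the suffix of their symbols, were in the table. Because a difference between the genotypes put a transcript into the table, the values below describe that difference for the 6 genes and no test of it is given. Their wildtype over mutant ratios in the authors' deposited table ran from 6.15 for ng2 to 81.7 for Eig71Ee, so none lay near the 1.5-fold limit. The lowest fold change of any transcript in that table was 1.5.

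The larval salivary gland of Drosophila melanogaster makes the glue that fixes the pupal case to its support. Its genes switch on in waves: sage encodes a basic helix-loop-helix transcription factor that works with Fork head to give the gland its identity, the ng ("new glue") genes and Pig1 are pre-intermoult genes that start before most glue protein (Sgs) genes, and the steroid hormone ecdysone later shuts the glue programme off. Eig71Ee encodes a secreted mucin-like protein of the late larval gland that is also known from haemolymph clots, and it lies in a cluster whose other Eig71E genes are mostly induced by ecdysone at the end of larval life. These genes are known for the gland, and the wing disc is not a tissue they are known for.

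Wildtype larvae were Oregon R (written OR and Orgon R in the labels). Mutant larvae were homozygous for a BEAF-32 mutation, with the same strain label, and were matched in age. BEAF-32 encodes a chromatin-binding boundary protein, and the labels give neither its allele nor the number of larvae per sample. Each genotype had 4 one-colour arrays of last-instar disc RNA, and the series' design text gives 2 biological and 2 experimental replicates. Within a genotype, pairs of arrays with the same leading title number had correlations of 0.9977 to 0.9986 over transcripts, and each pair was averaged to 1 replicate. Wildtype arrays with different first numbers correlated at 0.9662 to 0.97 and mutant ones at 0.9852 to 0.987. All means are ± SD with n = 2 replicates, on the log2 scale of the deposited values. Nothing in the labels ties the replicates to separate larvae, so the p-values measure only the spread between these samples, which may be technical.

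The 8 arrays had medians of 9.36 to 9.43, and their lowest values, 6.83 to 6.90, give the floor of the scale. The targeted gene BEAF-32 read 10.09, 11.94, 10.28 and 10.15 on the wildtype arrays 1_1, 1_2, 2_1 and 2_2, and 8.40 to 8.49 on the mutant arrays. Its log2 change was -2.17 (SE 0.30, limma adjusted p = 0.0289). Averaging by the second title number gave 0.000653, but that mixes the differing replicates of a genotype and hides their spread. The change of BEAF-32 did not pass with the first title number as a random block (limma adjusted p = 0.164) or without wildtype array 1_1 (0.0752). It was -2.21 without mutant replicate 1 and -2.14 without mutant replicate 2. Of the genes given with an adjusted p, limma called 18, BEAF-32 included. With either mutant replicate left out it called few or none of all transcripts. Calls lost under that omission are therefore not particular to these genes. Of 22 wing disc marker symbols 9 were named in the authors' table, and 7 of these lay above the array median on all 8 arrays. The share of all transcripts that did so was not computed, so this count does not show how much of a sample was disc. The ligand gene wg was at 11.89 ± 0.17 in wildtype and 12.97 ± 0.16 in the mutant, and the selector gene ap at 13.79 ± 0.01 and 12.92 ± 0.25.

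The regulator sage was lower on every mutant array than on every wildtype array, by about 3 units of log2 for both transcripts. Transcript A of sage read 11.23, 11.18, 10.66 and 10.77 on wildtype arrays 1_1, 1_2, 2_1 and 2_2, and 8.24, 8.11, 7.87 and 7.91 on the mutant arrays in the same order. Transcript B of sage read 10.92, 10.97, 10.60 and 10.42 in wildtype and 7.85, 7.77, 7.49 and 7.58 in the mutant. The genotypes did not overlap, and replicate 1 was the higher one in both genotypes for both transcripts. The labels do not say that the replicate number pairs the genotypes, so nothing is read from a shared order. Transcript A had a wildtype mean of 10.96 ± 0.35 and a mutant mean of 8.03 ± 0.20, which is a log2 difference of -2.93 or 7.62-fold. For transcript B the means were 10.73 ± 0.31 and 7.67 ± 0.20, a log2 difference of -3.05 or 8.29-fold. In the mutant, transcript B of sage stood only 0.64 to 0.95 above the lowest value of its array and transcript A 1.02 to 1.34 above it. A fold taken against a level so near the floor is limited by the floor. In RNA of a whole tissue sample, fewer cells of a type and less RNA per cell cannot be told apart, for sage as for the genes below.

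The 3 ng genes were also lower in the mutant without overlap, ng3 by far more than ng1 and ng2. For ng1 the wildtype arrays read 13.10, 13.03, 12.06 and 12.08 and the mutant arrays 9.85, 9.90, 9.83 and 9.87. For ng2 they read 13.27, 13.41, 12.73 and 12.75 in wildtype and 10.39, 10.51, 10.32 and 10.46 in the mutant. Wildtype replicate 1 was above wildtype replicate 2 for both genes, while the mutant arrays lay within 0.2 of each other. The log2 difference was -2.70 for ng1 (12.57 ± 0.71 to 9.86 ± 0.02, 6.52-fold) and -2.62 for ng2 (13.04 ± 0.42 to 10.42 ± 0.04, 6.15-fold). On the mutant arrays ng1 still stood 2.96 to 3.06 above the lowest value and ng2 3.48 to 3.67 above it. The sequences of ng1 and ng2 are known to be close, probe sequences were not used here, and how far their signals are separate was not tested.

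For ng3 the wildtype arrays read 13.12, 13.08, 11.82 and 11.75, and the mutant arrays 7.57, 7.47, 7.51 and 7.56. The mutant arrays were tightly grouped at 0.64 to 0.69 above their lowest values, whereas the wildtype replicates stood apart. The mean of ng3 went from 12.44 ± 0.93 to 7.53 ± 0.01, a log2 difference of -4.91 or 30.1-fold. Against wildtype replicate 1 alone the fold was 47.5 and against wildtype replicate 2 alone 19.1, so it depended strongly on the choice of wildtype replicate. The same choice moved ng1 from 9.21-fold to 4.61-fold, and ng2 from 7.57-fold to 5.0-fold.

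Pig1, the pre-intermoult gene next to the glue gene Sgs4, read 12.33, 12.23, 11.34 and 11.51 on the wildtype arrays and 8.90, 9.02, 9.49 and 9.34 on the mutant arrays. The genotypes did not overlap. Replicate 1 of Pig1 was the higher in wildtype and the lower in the mutant, but the number is not known to pair the genotypes. Its mean went from 11.85 ± 0.61 to 9.19 ± 0.32, a log2 difference of -2.66 or 6.33-fold, which was 8.52-fold against wildtype replicate 1 alone and 4.70-fold against wildtype replicate 2 alone. On the mutant arrays Pig1 stood 2.01 to 2.65 above the lowest value.

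Eig71Ee had the widest gap of the 6 genes. It read 14.75, 14.72, 14.94 and 14.86 in wildtype, and 8.44, 8.40, 8.53 and 8.48 in the mutant. All 4 arrays of a genotype were close to each other, and wildtype replicate 2 was slightly the higher. The mean of Eig71Ee went from 14.82 ± 0.12 to 8.47 ± 0.06, a log2 difference of -6.35 or 81.7-fold. Only 3 of the 16637 transcripts, Eig71Ee included, were as far down.

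**Figure D1:**
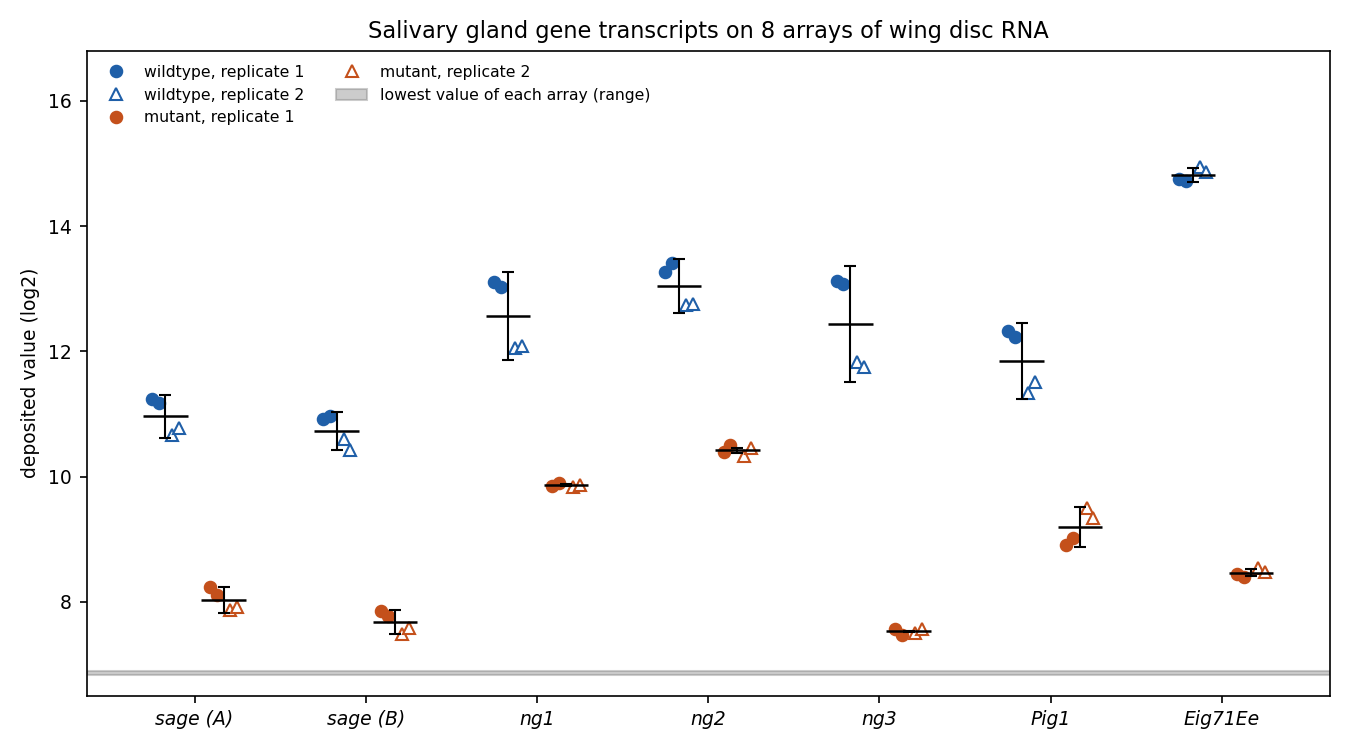
Deposited log2 value (vertical axis) of the 7 transcripts on each of the 8 arrays, blue for wildtype and orange for mutant, filled circles for replicate 1 and open triangles for replicate 2. Black lines give the mean and SD of the 2 replicates of a genotype, and the grey band the range of the arrays' lowest values. All mutant points lie below all wildtype points of the same transcript, and wildtype ng3 splits by replicate into 13.12 and 13.08 against 11.82 and 11.75.

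Over the 7 transcripts the median log2 difference was -2.93, with a range from -6.35 to -2.62, beside a median of 0.06 over all 16637 transcripts. For 7 of 7 transcripts the highest mutant array was lower than the lowest wildtype array, which held for 24.4% of all transcripts and 47.8% of those in the authors' table. As the table was chosen on the same difference, nothing follows from that count. The smallest gap between the lowest wildtype and the highest mutant array was 1.85 for Pig1 and the largest 6.19 for Eig71Ee.

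The differences between replicates are given as a description, since a table made by fold alone can hold more transcripts of large spread. In wildtype the replicates differed by a median of 0.60 over the 7 transcripts, beside 0.40 over the transcripts in the authors' table and 0.26 over all transcripts. In the mutant the medians were 0.09, 0.17 and 0.12. The wildtype difference was 1.31 for ng3, 1.0 for ng1, 0.86 for Pig1, 0.60 for ng2, and 0.49 and 0.43 for transcripts A and B of sage. A wildtype difference of at least the size of ng3 was found in 1.73% of all transcripts, of ng1 in 4.72%, of Pig1 in 7.35%, of ng2 in 17.6%, and of sage transcripts A and B in 25% and 29.9%. Both arrays of wildtype replicate 1 lay above both of replicate 2 for these 6 transcripts, as they did for 46.2% of all transcripts. Eig71Ee was the 1 transcript of the 7 with both arrays of replicate 1 below both of replicate 2, as were 39.0% of all transcripts, and its difference of 0.16 was reached by 65.3%.

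For 7 glue genes of the same gland the wildtype replicates differed by 0.04 to 0.52. Replicate 1 minus replicate 2 was -0.24 for Sgs4, -0.05 for Sgs5, -0.04 for Sgs3, 0.10 for Sgs8, 0.15 for Sgs7, 0.31 for Sgs1 and 0.52 for Sgs5bis. Several of these lay near the top of the scale in wildtype: Sgs3 at 15.38 was the highest value of array 2_1, and Sgs5, Sgs7 and Sgs8 had means of 14.73, 14.76 and 14.68. Eig71Ee at 14.82 was as high, and how far such levels limit a difference between replicates was not tested. Wildtype arrays 1_1 and 1_2 had a wider distribution, with upper quartiles of 11.31 and 11.29 against 11.13 to 11.18 on the other 6 arrays. After quantile normalization, which makes the distributions equal, the wildtype difference was 1.22 for ng3, 0.91 for ng1, 0.72 for Pig1, 0.55 for ng2, and 0.32 and 0.28 for sage. The sign was kept for each of the 7 transcripts in wildtype, Eig71Ee with -0.15.

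In the mutant Pig1 stood out among the 7 transcripts, with replicates 0.45 apart, a size that 7.04% of all transcripts reached. The sage transcripts were 0.29 and 0.28 apart in the opposite direction, reached by 18.2% and 19.5% of transcripts. In the mutant 2 of the 7 transcripts, those of sage, had both arrays of replicate 1 above both of replicate 2, beside 31.5% of all transcripts. Pig1 and Eig71Ee, 2 of the 7, had them below, beside 31.6%. For ng1, ng2, ng3 and Eig71Ee the mutant replicates differed by 0.01 to 0.09. The smallest difference was that of ng3, whose mutant arrays stood only 0.64 to 0.69 above the lowest values, so the floor limits it. Of the glue genes Sgs3 differed most between the mutant replicates, by 0.97, at 11.15 and 11.18 on the arrays of replicate 1 and 10.08 and 10.32 on those of replicate 2.

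**Figure D2:**
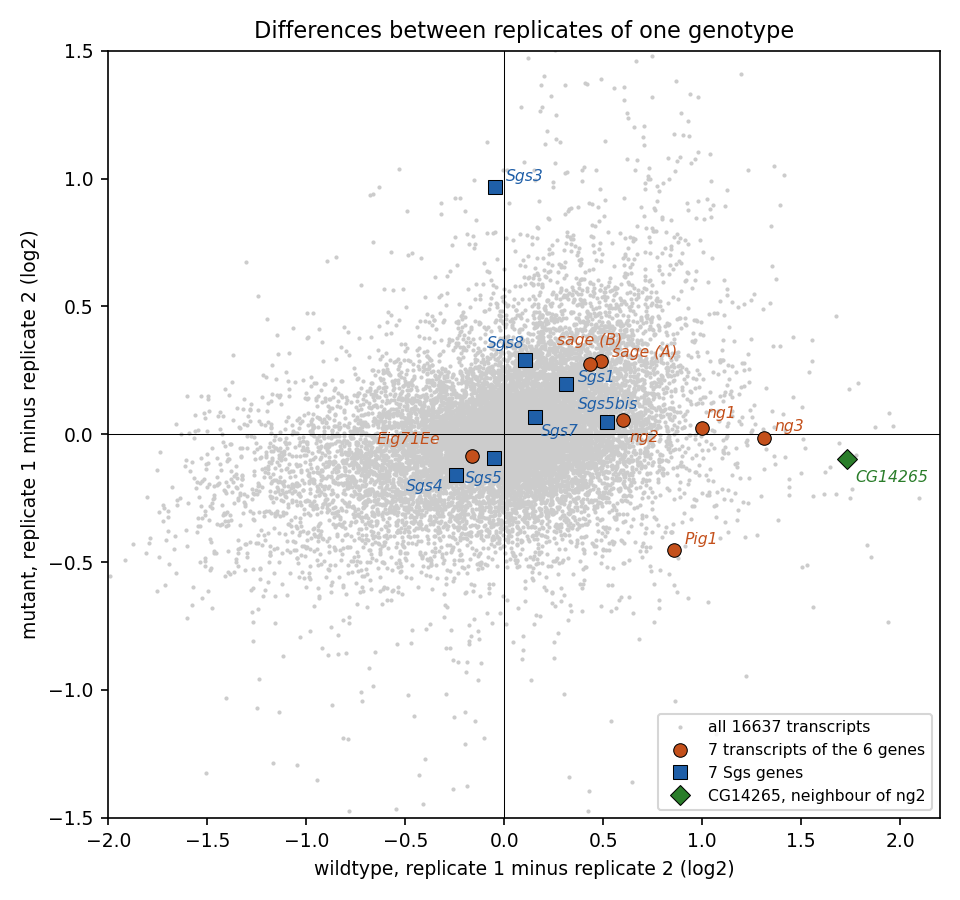
Replicate 1 minus replicate 2 in wildtype (horizontal axis, log2) against the same difference in the mutant (vertical axis, log2), each point a transcript. The labels do not say that the replicate number pairs the genotypes. Orange circles are the 7 transcripts of the 6 genes, blue squares 7 Sgs genes, the green diamond CG14265, and grey points all transcripts, of which 96 lie outside the plotted range. Along the horizontal axis ng3, ng1 and Pig1 lie at 1.31, 1.0 and 0.86, while the Sgs genes lie between -0.24 and 0.52.

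In RefSeq's gene order (Release 6 plus ISO1 MT), ng2, ng3, ng1 and Pig1 lie on chromosome X within the bounds of dnc, the gene for a cAMP phosphodiesterase. Of 8 genes annotated wholly within it, 6 were named in the authors' table, in the order CG14265, ng2, ng3, ng1, Pig1 and Sgs4, with ng4 between ng1 and Pig1. Their log2 differences ran from -4.91 for ng3 to -2.07 for Sgs4. The mutant arrays of these 6 genes did not overlap the wildtype arrays, beside 24.4% of all transcripts and 47.8% of those in the table, and nothing is read from it, since 4 of them are among the 6 chosen genes and the table holds only genes that differed. The values of ng4, CG10793 and dnc itself were not analysed here, since the table does not name them.

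CG14265, which adjoins ng2 and carries no gene name, read 12.93, 12.98, 11.21 and 11.24 on the wildtype arrays and 7.43, 7.34, 7.48 and 7.48 on the mutant arrays. It fell by 4.65 on the log2 scale (SE 0.61, limma adjusted p = 0.0261). With arrays or replicates left out its log2 change ran from -5.52 to -3.79. Averaging by the second title number gave a limma adjusted p of 2.01e-07, but that mixes the differing wildtype replicates and hides their spread. The fold of CG14265 depended on the wildtype replicate used, at 45.9 with replicate 1 and 13.8 with replicate 2. The mutant arrays of CG14265 stood only 0.51 to 0.64 above their lowest values, so the floor limits these folds. The wildtype replicates of CG14265 differed by 1.73, in the same direction as those of ng3, ng1, ng2 and Pig1. Sgs4, at the other end of the group, fell by 2.07 (SE 0.15, limma adjusted p = 0.0108), and its wildtype replicates differed by 0.24 in the opposite direction. CG3939, the gene just before dnc in that order, was at -0.72 and did not pass (limma adjusted p = 0.1).

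Around Eig71Ee on chromosome 3L, 4 of the 10 other Eig71E genes were named in the table. Eig71Ea fell by 1.93 (limma adjusted p = 0.0295) and Eig71Eb fell by 2.21 (limma adjusted p = 0.043), while Eig71Ec at -0.63 (adjusted p = 0.143) and Eig71Eg at -0.68 (adjusted p = 0.254) did not pass. With 1 transcript per named gene the adjusted p of Eig71Eb was 0.0501. Eig71Ec lay near the floor in both genotypes, at 0.84 to 1.39 above the lowest value of the array in wildtype and 0.42 to 0.51 in the mutant, so its difference is limited by the floor and is not set against that of Eig71Ee. The mutant arrays of Eig71Eb, at 0.54 to 0.60 above the lowest value, were near the floor too. Wildtype levels also moved in different ways between replicates: Eig71Eb was at 10.10 and 10.22 in replicate 1 against 9.04 and 9.19 in replicate 2, and Eig71Eg at 8.81 and 8.81 against 9.61 and 9.78. Eig71Eg passed when wildtype replicate 1 was left out (limma adjusted p = 0.024), and Eig71Ec when wildtype replicate 2 was (0.0198).

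Of the 3 genes on either side of sage on chromosome 3R, Ibf1 and Vps16A were named in the table, at -0.59 (limma adjusted p = 0.102) and -0.74 (limma adjusted p = 0.0841). Ibf1 encodes an insulator-binding factor and Vps16A a subunit of a vesicle tethering complex. With the 8 arrays as separate samples the limma adjusted p was 0.0014 and 0.0016. That setting counts near-duplicate arrays as independent, so no pass is read from it. With the first title number as a random block the limma adjusted p was 0.0186 for Ibf1 and 0.0335 for Vps16A. Whether these genes pass therefore depends on how replication is modelled. Without wildtype replicate 2 the log2 changes of Ibf1 and Vps16A were -0.58 and -0.85. The sage transcripts themselves were at -2.93 and -3.05.

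**Figure D3:**
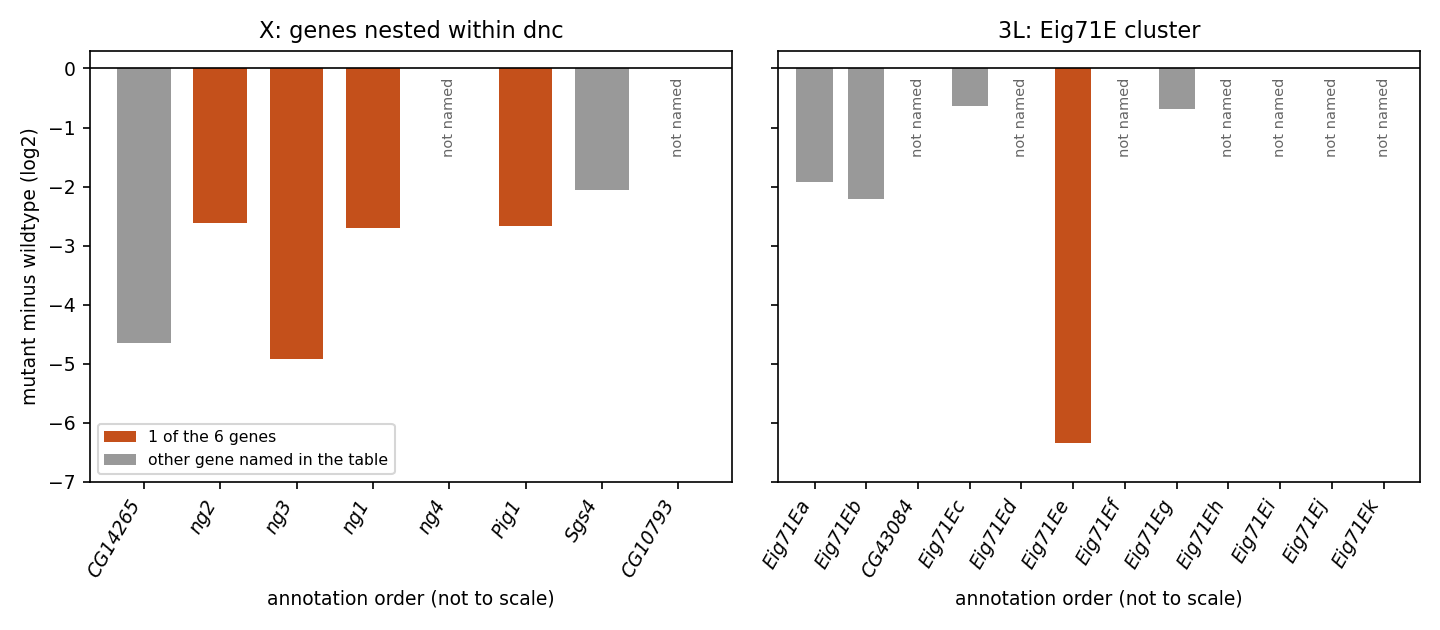
Mutant minus wildtype log2 difference (vertical axis) of genes in annotation order, not to scale, for the genes nested within dnc on X (left) and the Eig71E cluster on 3L (right). Orange bars are genes of the 6, grey bars other genes named in the authors' table, and "not named" marks genes that the table does not name. On X the named genes run from -4.91 to -2.07, and on 3L the bar of Eig71Ee reaches -6.35. The short bar of Eig71Ec, -0.63, belongs to a gene near the floor in both genotypes.

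The other genes of the gland were read against the same arrays with limma. Over all transcripts limma called 6.08% lower and 3.89% higher in the mutant at an adjusted p under 0.05, and over the 3806 genes that the authors named, 22.6% lower and 13.7% higher. Of 11 genes in the glue and secretion list 8 were named, and all 8 fell, with a median log2 change of -5.81 beside 0.06 over all transcripts. Sgs5 fell by 7.5 (limma adjusted p = 0.00287), Sgs7 by 7.05 (0.00287), Sgs8 by 6.0 (0.00305) and Sgs1 by 5.71 (0.00306). The others were Sgs5bis at -5.91, Sgs3 at -4.68, pip at -2.41 and Sgs4 at -2.07, where pip encodes a sulfotransferase. On the mutant arrays Sgs5 stood 0.32 to 0.42 above the lowest value, Sgs5bis 0.61 to 0.68 and Sgs7 0.80 to 0.96. The changes of these genes are therefore limited by the floor, and the other genes of the list stood higher. Selection into the table by the same difference means that the count of 8 is not independent evidence. With mutant replicate 1 left out, limma called 0 of the 8 and 0 of all transcripts, of which 2353 had an unadjusted p below 0.05. With mutant replicate 2 left out it called 5 of the 8.

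Of 17 regulators of the gland other than sage 4 were named, and 2 fell, with a list median of -1.0. These were the secretory pathway activator gene CrebA, from 13.04 ± 0.18 to 11.85 ± 0.21 (log2 change -1.18, limma adjusted p = 0.0321), and the Hox gene Scr, which specifies the segment where the gland forms, from 8.84 ± 0.29 to 7.77 ± 0.07 (-1.07, adjusted p = 0.0433). Neither passed without mutant replicate 1 (0.174 for CrebA, 0.248 for Scr) or without mutant replicate 2 (0.227 and 0.264). The homeobox gene hth at -0.93 and the ecdysone-induced gene br at -0.66 did not pass (adjusted p = 0.191 for each), although 2 of the 6 named transcripts of br did, at -1.35 (adjusted p = 0.0402) and -0.91 (adjusted p = 0.0258).

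Of 31 genes in the ecdysone response list 22 were named, 11 fell, 4 rose and 7 did not pass, with a median of -1.09. By adjusted p the first were Fbp1 (-6.21, limma adjusted p = 0.00305), a fat body receptor gene, Ldh (5.27, 0.00324), lactate dehydrogenase, and the hormone-inducible disc genes ImpE3 (-3.66, 0.00503) and ImpE2 (-4.70, 0.00537). Without mutant replicate 1 limma called 0 of these 22 genes, and without mutant replicate 2 it called 2 lower and 1 higher.

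Profiles over the 8 arrays were compared by the root mean square distance of mean-centred log2 values, over 4372 other transcripts in the table. All of them share the 8 arrays and were selected for a difference between the genotypes, so the distances are a description and likeness in function or control was not tested. For ng3 the nearest was CG14265 at 0.20, with CG31698 and SIP2 next at 0.43 each, which lack its wildtype split (replicates 0.12 and 0.16 apart). For ng1 the nearest were CG31210 at 0.08, CG9133 at 0.08 and exu at 0.10, and for ng2 CG10252, CG2127 and Obp44a at 0.09 to 0.10. Nearest to sage were CG32447 at 0.08, ImpE1 at 0.09 by its transcript B, which is not its highest, and Hsp60C at 0.09. Pig1 had less close neighbours, Reph at 0.13, hydra at 0.17 and sm at 0.18, and Reph had its replicates apart the same way as Pig1 in wildtype (0.93) and in the mutant (-0.64). Nearest to Eig71Ee were Fbp1 at 0.09, the odorant-binding protein gene Obp99b at 0.18 and the tumour suppressor gene l(2)gl at 0.22. On the mutant arrays l(2)gl stood only 0.03 to 0.04 above the lowest value and Obp99b 0.56 to 0.71. The distances of l(2)gl and Obp99b therefore depend on the floor. Among the 6 genes themselves ng1 and ng2 were closest at 0.16, and Eig71Ee and ng2 were farthest apart at 1.89.

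Markers of other tissues differed in the same samples. The summed level of the 8 named of 12 salivary gland markers, as log2 of the sum, was 17.38 to 17.49 on the wildtype arrays and 13.25 to 13.50 on the mutant arrays. For fat body, with 9 named of 10 markers, it was 17.19 to 17.23 in wildtype and 13.27 to 15.13 in the mutant. For the wing disc itself, with 9 named of 22 markers, it was 15.05 to 15.34 in wildtype and at least 14.83 in the mutant. In wildtype this lay below the salivary gland and fat body sums, and in the mutant above the salivary gland sum. The lists hold different genes, so the sums do not give the share of a tissue in a sample. The lowest named salivary gland marker on a mutant array was at 7.15 and the lowest fat body marker at 7.81, both near the floor. For haemocytes, with 8 named of 13 markers, it was 13.34 to 14.02 in wildtype and 15.30 to 15.42 in the mutant. Summed tracheal markers (3 named of 5) were higher in the mutant, at 15.07 to 15.14 against 13.64 to 13.81, and muscle markers (3 of 6) lower, at 10.71 to 11.03 against 12.36 to 12.52. All 9 named fat body markers had both arrays of mutant replicate 1 below both of replicate 2, beside 31.6% of all transcripts. Lsp1gamma was at 10.79 in replicate 1 and 13.72 in replicate 2, and Lsp2 at 10.99 and 13.02. Pig1 and Eig71Ee had the same order of mutant replicates and sage the opposite one. The difference for Eig71Ee was only 0.09, a size that 61.6% of all transcripts reached. Of the 8 named salivary gland markers 2 had that order in the mutant, 4 the opposite one, and 2 overlapped. The part of other tissues in the results for the 6 genes was not tested.

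**Figure D4:**
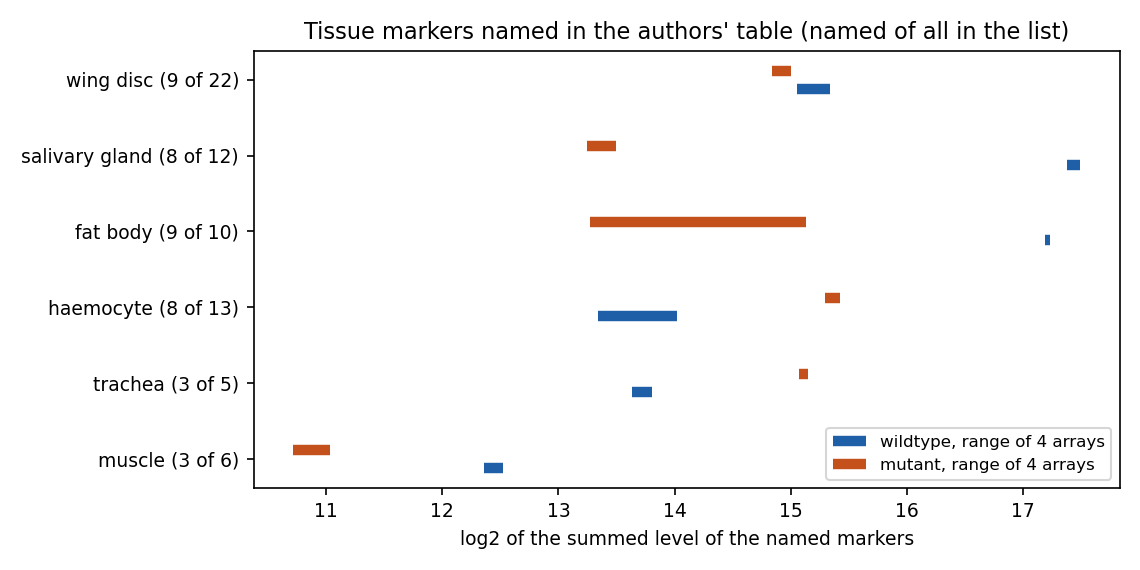
Log2 of the summed level (horizontal axis) of the tissue markers that the authors' table names, with the number named of all in the list in brackets. Each bar spans the 4 arrays of a genotype, orange for mutant and blue for wildtype. Salivary gland markers span 17.38 to 17.49 in wildtype and 13.25 to 13.50 in the mutant, and the fat body bar of the mutant is the widest, at 13.27 to 15.13.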

How the data were processed

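Per the labels' protocols, wing disc RNA was copied to cDNA with oligo-dT, and NimbleGen's standard procedure with the dye Cy3 was used for the arrays. The value table deposited by the authors holds 1 log2 value per transcript and array, and the tools listed by the submitters' processing notes are RMA and Partek, with no version. As a method, RMA corrects background, equalises distributions and summarises probes. Probe signals and a genome build were not used here. Closeness to background was judged from each array's lowest value, and precision is limited by how few arrays there are. The ratio in the authors' deposited table is wildtype over mutant. Its log2 differed from the difference computed here by at most 8e-05, so it is the same measurement, and signs here are mutant minus wildtype.

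Gene names came from that table. Of 3850 gene identifiers 2541 matched a RefSeq symbol, 1079 matched a synonym and the remaining 230 are named as in the file. The other 12258 transcripts stayed unnamed. The 6 genes and all lists were chosen with earlier results of these data known. Arrays sharing the first title number were averaged. limma 3.58.1 in R 4.3.3 tested genotype over all 16637 transcripts, with 2 residual degrees of freedom and Benjamini-Hochberg adjustment. "Rose" and "fell" mean an adjusted p under 0.05. A gene with several transcripts was represented by that with the highest mean. The exception was the profile comparison, where genes outside the 6 entered by their nearest transcript. This fit was also run on simulated arrays with independent noise and few changed transcripts. Such arrays can differ from these data, so nothing is drawn from that run. Named genes were the 6 genes with all their transcripts, the 3 nearest in profile to each, up to 4 per list that passed by adjusted p, the 2 highest per marker list, BEAF-32 and Sgs4. The neighbours CG3939, Ibf1 and Vps16A were taken by position, and the remaining genes of lists and the replicate values of glue genes were added after their values were seen. Alternatives covered scaling, a filter on low values, the unit of replication, the representative transcript and omitted samples. Python 3.11.15 and matplotlib 3.10.9 made the summaries and figures.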

Additional observations from a re-analysis of the deposited data

Results flagged for a closer look

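Among the genes named by rule, 116 groups of 4 arrays were examined for an array that stands far from the other 3, and 4 groups had one, where chance gives about 1 in 20 for independent arrays. Here each group is 2 pairs of near-duplicate arrays, so that rate does not apply. None was a group of sage, ng1, ng2, ng3, Pig1 or Eig71Ee. BEAF-32 read 11.94 on wildtype array 1_2, with the next wildtype array at 10.28. Sgs1 read 8.12 on mutant array 2_1, with the next at 8.42. The haemocyte marker Sr-CI read 11.67 on wildtype array 1_2, with the next at 11.58. The tracheal marker verm, named LCBP1 in the file, read 12.98 on wildtype array 1_2, with the next at 13.14.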

How the results depend on the processing

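The log2 differences of the 7 transcripts stayed below 0 under the 16 settings tried. Many of these settings cannot move a difference by more than the SD of 2 replicates, so this says little about stability. Leaving out replicates or arrays moved their median, -2.93, between -3.20 and -2.68. Calls by limma depended on the unit of replication. Against 647 transcripts higher and 1012 lower, averaging by the second number gave 7148 and 5744, the 8 arrays as separate samples 4203 and 3963, and a random block for the first title number 1730 and 2178. Averaging by the second number mixes the differing replicates of a genotype, and separate arrays count near-duplicates as independent, so both understate the spread. With the first number as a replicate block across genotypes 1011 were higher and 1383 lower, hth (adjusted p = 0.0266) and CG3939 (0.049) passed, and the regulator list had 3 genes lower. The labels do not say that the number pairs the genotypes, and the replicate deviations of the genotypes correlated at 0.30 across transcripts. Leaving out replicates or arrays gave 0 to 2685 higher and 0 to 2648 lower, with 0 of each without mutant replicate 1 and 3 and 18 without mutant replicate 2, where the spread comes from the wildtype pair alone and the lone mutant replicate is assumed to vary like it. Without wildtype replicate 2 the counts were 2685 and 2648. Under the same omissions the genes lower ranged from 0 to 8 in the glue and secretion list, 0 to 2 in the regulator list, 0 to 3 in the Eig71E list and 0 to 15 in the ecdysone list, and the genes higher in that list from 0 to 6. The regulator list had 4 genes lower with averaging by the second number, with 8 separate arrays and with the random block. The Eig71E list had 4 with averaging by the second number and with 8 separate arrays, and 1 with 1 transcript per named gene. None of 25 genes given with an adjusted p changed direction over 500 pairs of gene and alternative. Most of these pairs could not have shown a reversal. Changing the unit of replication, the filter or the representative transcript left the log2 change as it was. The arrays of these genes did not overlap between genotypes, so omitting samples could not reverse it either. Of the 18 called, 18 were lost without mutant replicate 1 and 10 without mutant replicate 2. Among the other alternatives 3 calls were lost, those of BEAF-32 with the random block (adjusted p = 0.164) and without wildtype array 1_1 (0.0752), and of Eig71Eb with 1 transcript per named gene.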
